A study of Homo sapiens with 6 samples.

Results

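MAP kinase cascades pass a signal from the cell surface or from stress through tiers of protein kinases, each of which phosphorylates and switches on the next. The tiers are the MAP kinases themselves (MAPK), the kinases that activate them (MAP2K), and the MAP3K and MAP4K enzymes above those. The described genes are those named for these tiers, for kinases switched on by a MAP kinase (MAPKAPK) and for proteins that bind MAP kinases, chosen by gene name alone. The data set lists clusters, short stretches of intron covered by nuclease-protected RNA that came down with a purified Rbfox1 complex, and the cascade genes held 3207 of 554456 clusters, in 46 of 11805 genes named alone. One gene that fits the name pattern is not reported here.

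The RNA was recovered with FLAG-tagged Rbfox1, a splicing regulator that binds GCAUG in introns, together with LASR, a large complex of further splicing proteins that bind RNA. The cells were HEK293 Flp-In, a line from human embryonic kidney with a fixed site for a transgene, and all came from a single clone (number 7) in which Rbfox2 was knocked out. One line carried FLAG-Rbfox1(WT), with 3 libraries, another FLAG-Rbfox1(F125A), in which a phenylalanine of its RNA recognition motif is changed to alanine, with 2 libraries, and cells without any transgene gave 1 control library. The 3 WT libraries share 1 list of clusters and the 2 F125A libraries another, and the control library has none and was not analysed here.

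Each list stands for its whole group, so no value has a replicate error, no test between WT and F125A was possible, and every interval covers counting error only. Depth is unknown, since a list gives the place of a cluster and no reads. With repeats dropped there were 366429 WT and 188027 F125A clusters, or 1.95 WT clusters for each F125A cluster, and that figure is the baseline for the genes below. Places are on hg38. All 5 marker genes of HEK293 cells had clusters in both lists, 233 WT and 166 F125A clusters in sum. Of 13 markers of liver, blood, muscle and neurons, 6 had a WT and 5 an F125A cluster, 95 and 30 in sum, most of them in the neuronal genes SYT1 (67 WT and 15 F125A) and RBFOX3 (20 and 9), while ALB, APOB, CYP3A4, HBB, MYH7 and CKM had none.

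One place in these genes can be shown by its sequence. MAP2K4, the kinase that activates the stress-responsive JNK enzymes, holds the microRNA hairpin MIR744, 61 kb from the gene start, at chr17:12081899-12081996 on the plus strand. Clusters covered all 98 nt of the hairpin in both lists. The hairpin is given first, with its mature arms in capitals, and then each mature arm with its seed (bases 2 to 8) in capitals, as RefSeq gives them for GRCh38.p14.
MIR744: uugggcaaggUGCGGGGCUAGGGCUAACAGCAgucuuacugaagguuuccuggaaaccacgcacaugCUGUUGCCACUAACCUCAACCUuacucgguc
hsa-miR-744-5p: uGCGGGGCuagggcuaacagca
hsa-miR-744-3p: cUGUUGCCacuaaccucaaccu

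In each list the hairpin was split between a pair of clusters that meet without a gap. The first WT cluster, of 86 nt, began 45 nt before the hairpin and ended at its position 41, and the second, of 106 nt, began at position 42 and ran past its end. The first F125A cluster, of 81 nt, ended at position 44, and the second, of 95 nt, began at position 45. Both meeting points lie between the 5p arm (positions 11 to 32) and the 3p arm (positions 68 to 89), and they are 3 nt apart. The hairpin does not hold GCAUG. Of 700 RefSeq hairpins inside a gene of the lists on the same strand, 72 (10.3%) had a WT cluster over them, 79 (11.3%) an F125A cluster and 51 (7.29%) both. More than 1 WT cluster lay over 34 of them (4.86%) and more than 1 F125A cluster over 33 (4.71%), and MIR744 is among both of these. The only other hairpin inside a cascade gene on the same strand, MIR3177 in MAPK8IP3, had no cluster over it. The nearest WT cluster was 40 nt away and the nearest F125A cluster 228 nt.

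**Figure D1:**
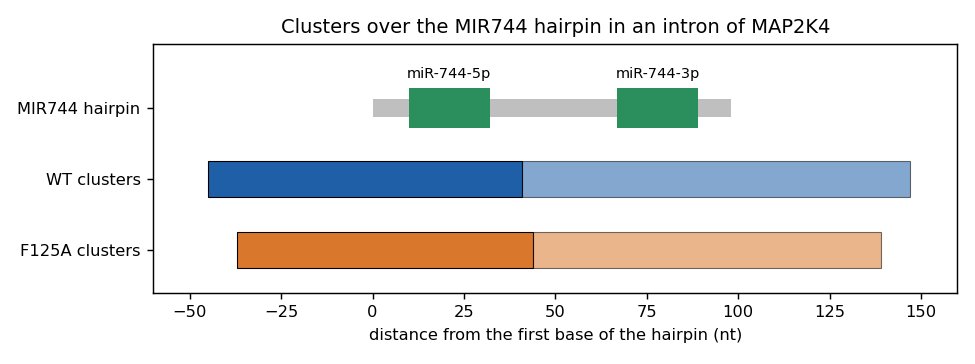
Extent of the WT (blue) and F125A (orange) clusters over the MIR744 hairpin (grey, mature arms green), against the distance in nt from the first base of the hairpin. Each list has a pair of clusters that meet between the arms, after position 41 with WT and after position 44 with F125A.

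The cascade genes together leaned slightly to WT. They held 2177 WT and 1030 F125A clusters, 0.594% and 0.548% of the lists, or 2.11 WT clusters per F125A cluster against 1.95 for the whole lists. All 46 genes had a WT cluster, 39 also had an F125A cluster and 7 (15.2%) had WT clusters only, against 1145 (9.7%) of all genes. Of the 51 protein-coding genes of this name pattern in RefSeq, 5 had no cluster in either list, among them MAPK10 (583.7 kb long), which encodes JNK3, a MAP kinase found mainly in neurons, the MAP kinase genes MAPK7 and MAPK15, and MAPK8IP1, which encodes a scaffold of the JNK pathway. No cluster of a cascade gene was shared with a second gene name. In the WT list 97 of the clusters (4.46%) and in the F125A list 36 (3.5%) lay within the bounds of another RefSeq gene on either strand. Of these 97 and 36, 2 and 0 lay within a protein-coding gene.

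**Figure D2:**
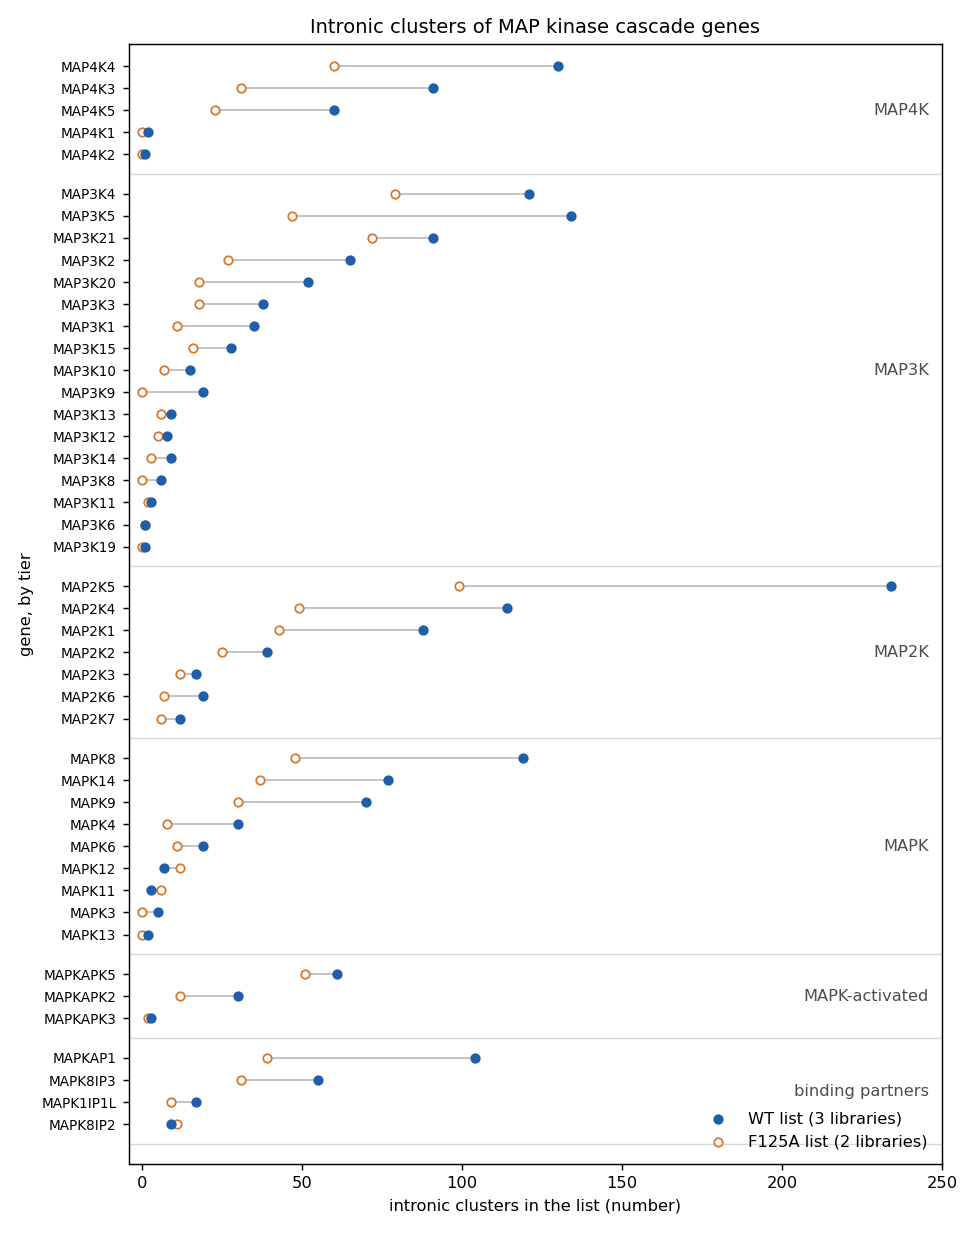
Number of intronic clusters of 45 of the genes in the WT list (filled blue) and in the F125A list (open orange), on a linear axis, with genes grouped by tier. The F125A count is the higher in MAPK11, MAPK12 and MAPK8IP2 only, MAP3K6 has 1 in each list, and MAP2K5 has the most in both lists.

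Genes whose WT and F125A clusters summed to 20 or more were given a log2 ratio, WT over F125A, after adding 1 to each count. From it the same ratio of the 2 totals (0.96) was taken off, so that 0 stands for 1.95 WT clusters per F125A cluster. This left 30 of the 46 genes. The other 16 are given by their counts and held 91 WT and 43 F125A clusters. The 30 genes had a median ratio of 0.16 (quartiles -0.18 and 0.35), with 20 above and 10 below 0. The 5626 genes so measured in the whole lists had a median of -0.04, and 46.5% of them lay above 0. The 30 genes were longer, with a median of 100.5 kb against 71.2 kb. When each ratio was set against the median gene of its own length class (20 classes), called the length-matched ratio from here on, their median was 0.10, again with 20 above and 10 below 0.

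Few of these genes differed strongly between the forms of Rbfox1. None of the 30 genes lay 2-fold or more toward WT, as 2.51% of all genes measured did, and 1, MAPK8IP2, lay 2-fold or more toward F125A, as 1.99% of all did. The 95% counting interval lay wholly above 0 for 1 gene, MAP3K5, against 5.85% of all genes, and wholly below 0 for 2, MAP3K21 and MAPKAPK5, against 4.37%. Counts of 0 to 2 among 30 genes are near these background shares.

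**Figure D3:**
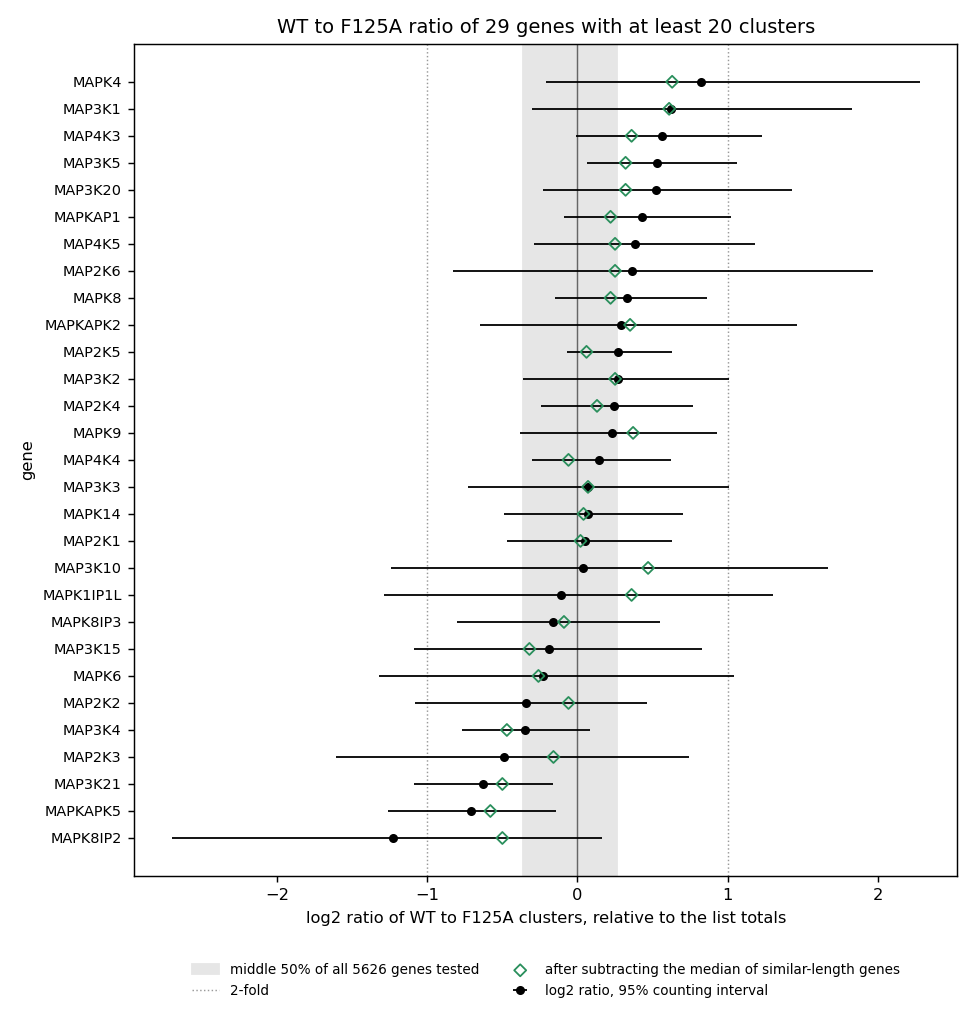
Log2 ratio (WT over F125A clusters, relative to the totals) for 29 of the genes with at least 20 clusters (black points, bars are 95% counting intervals) and the length-matched ratio (green diamonds). Most points sit within 0.5 of 0, and the grey band runs between the quartiles of all 5626 genes, -0.36 and 0.26.

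The MAP kinases, the last tier of the cascade, held 456 WT and 208 F125A clusters in 10 genes, or 6.49 and 2.96 per 10 kb of gene. MAPK3, which encodes ERK1, an output of growth factor signalling, had 5 WT clusters and no F125A cluster over only 9.12 kb (5.48 WT clusters per 10 kb). The JNK genes MAPK8 (119 WT and 48 F125A clusters, 0.33, interval -0.15 to 0.86) and MAPK9 (70 and 30, 0.23, -0.38 to 0.93) and the gene of p38 alpha, MAPK14 (77 and 37, 0.07, -0.49 to 0.70), all had intervals that hold 0.

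The other p38 genes were short and had few clusters. MAPK11, for p38 beta, had 3 WT and 6 F125A clusters over 6.67 kb, MAPK12, for p38 gamma, 7 and 12 over 8.78 kb, and MAPK13, for p38 delta, 2 and 0 over 14 kb. MAPK11 and MAPK12 lie 2.03 kb apart on chromosome 22 and were, with MAPK8IP2 on the same chromosome, the 3 of 46 genes with more F125A than WT clusters. In the whole lists 816 genes (6.91%) had more F125A than WT clusters. Together these 3 genes had 19 WT and 29 F125A clusters, a sum that favours F125A because they were picked for having more F125A clusters. All 3 WT clusters of MAPK11 and 6 of the 7 of MAPK12 overlapped an F125A cluster, while 3 of 6 and 6 of 12 F125A clusters had no WT partner. The F125A cluster nearest to the gene start lay 0.762 kb from it in MAPK11 and 0.612 kb in MAPK12, and the nearest WT clusters 4.2 kb and 4.25 kb.

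The genes of the atypical kinases ERK4 and ERK3 had few clusters for their annotated length. MAPK4, on chromosome 18 (50559612 to 50731826), had 30 WT and 8 F125A clusters over 172 kb, the highest ratio among the 30 genes (0.82, interval -0.21 to 2.28, length-matched 0.63). Among the 30 genes it also had the widest stretch between neighbouring clusters of either list, 33.9 kb or 19.7% of the gene. MAPK6 had 19 and 11 over 95.6 kb (-0.23, interval -1.32 to 1.04), and its first cluster lay 48.4 kb from the gene start in both lists.

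The MAP2K tier held 523 WT and 241 F125A clusters in 7 genes. Its 7.41 WT clusters per 10 kb were the most of any tier, while its 3.41 F125A clusters per 10 kb came after the 4.42 of the MAPKAPK genes. Of the 65 F125A clusters of the MAPKAPK genes, 51 lay in MAPKAPK5. MAP2K5, which encodes the activator of ERK5, had 234 WT and 99 F125A clusters over 264 kb of chromosome 15 (67542703 to 67807114, plus strand), a ratio of 0.27 (interval -0.07 to 0.63). Its 8.85 WT clusters per 10 kb were 2.34 times the median of measured genes as long (3.78), and its 3.74 F125A clusters per 10 kb 2.29 times theirs. MAPK7, the gene of ERK5 itself, is 5.79 kb long and had no cluster.

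MAP2K1 and MAP2K2, the genes of MEK1 and MEK2, had 88 WT and 43 F125A (0.05, interval -0.47 to 0.63) and 39 and 25 clusters (-0.34, -1.08 to 0.46). MAP2K2 was the denser per length, at 11.5 WT clusters per 10 kb against 8.41, and 26 of its 39 WT clusters (66.7%) lay within 10 kb at the start of the gene. It also held the longest runs of clusters less than 50 nt apart, 6 WT clusters within 441 nt and 6 within 525 nt, the latter at chr19:4123288-4123812. The JNK activators were MAP2K4, with 114 WT and 49 F125A clusters (0.24, interval -0.24 to 0.77), and MAP2K7, with 12 and 6. Of the 49 F125A clusters of MAP2K4, 48 overlapped a WT cluster. The p38 activators were MAP2K3, with 17 and 12 (-0.49, interval -1.61 to 0.74), and MAP2K6, with 19 and 7 (0.36, -0.83 to 1.97). MAP2K6 is 139 kb long but had only 1.37 WT clusters per 10 kb, and only 3.56% of genes of similar length had fewer, while its 0.503 F125A clusters per 10 kb were 0.24 times the median of such genes.

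The MAP3K tier, where signals from receptors and stress enter, was the largest, with 635 WT and 312 F125A clusters in 17 genes (4.11 and 2.02 per 10 kb). The mixed-lineage kinases MLK1 to MLK4, which have related kinase domains, ranged from more F125A clusters than the totals give to none. MAP3K21 (MLK4) had 91 WT and 72 F125A clusters over 57.4 kb of chromosome 1 (233327724 to 233385148, plus strand), a ratio of -0.63 (interval -1.09 to -0.16). Its counts were high for its length. Its 15.8 WT clusters per 10 kb exceeded 95% of measured genes of similar length, and its 12.5 F125A clusters per 10 kb, 3.88 times the median, exceeded 97.2%. MAP3K9 (MLK1) had 19 WT clusters and no F125A cluster over 87 kb of chromosome 14 (70722526 to 70809513, minus strand). MAP3K10 (MLK2) had 15 and 7 clusters (0.04, interval -1.24 to 1.67) and MAP3K11 (MLK3) 3 and 2.

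MAP3K9 fell 1 cluster short of the minimum of 20. Of the 1145 genes with WT clusters and no F125A cluster in the whole lists, whose median was 1 WT cluster, only 2 had more WT clusters than its 19. Against a floor of 3 F125A clusters for the gene, and with its 19 WT clusters taken as counted, its share of the WT list was at least 3.25-fold higher than its share of the F125A list. The counting interval of its log2 ratio, which also covers the error of the 19, begins lower, at 1.26, and has no upper end. The 19 clusters were 34 to 117 nt long with a median of 55 nt, spread from 9.7 to 77.3 kb from the gene start, and 9 of them lay within 10 kb (chr14:70789956-70799815). The F125A list held no cluster of any gene on either strand within the bounds of MAP3K9. MAP3K8 (TPL2), which activates MEK in immune cells, had 6 WT clusters and none with F125A, and MAP3K19 1 and none.

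MAP3K5, the gene of the oxidative stress sensor ASK1, had 134 WT and 47 F125A clusters over 236 kb of chromosome 6 (136557046 to 136793091, minus strand), a ratio of 0.53 (interval 0.06 to 1.06), length-matched 0.32. Its relatives MAP3K15 (ASK3) and MAP3K6 (ASK2) had 28 and 16 (-0.19, interval -1.09 to 0.83) and 1 and 1. MAP3K4, which activates the p38 and JNK branches, had 121 WT and 79 F125A clusters (-0.35, interval -0.77 to 0.08). Its 6.29 F125A clusters per 10 kb were 3 times the median of measured genes as long. MAP3K1 (MEKK1), with 35 and 11, lay at 0.62 (interval -0.30 to 1.83), MAP3K2, with 65 and 27, at 0.27 (-0.36 to 1.01) and MAP3K3, with 38 and 18, at 0.07 (-0.73 to 1.01). MAP3K20 (ZAK), which senses stalled ribosomes, had 52 and 18 (0.52, interval -0.23 to 1.43). The remaining genes of the tier were MAP3K12 (8 and 5), MAP3K13 (9 and 6) and MAP3K14 (9 and 3), the last the gene of NIK, which acts in the non-canonical NF-kB pathway. MAP3K13 is 206 kb long, and its first WT cluster lay 83 kb from the gene start.

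All 3 measured genes of the MAP4K tier lay above 0. They were MAP4K3 (91 WT and 31 F125A clusters, 0.56, interval -0.01 to 1.23), whose product acts in amino acid signalling, MAP4K4 (130 and 60, 0.14, -0.30 to 0.62) and MAP4K5 (60 and 23, 0.38, -0.29 to 1.18). The length-matched ratio of MAP4K4 was -0.06. The genes of the blood cell kinase MAP4K1 and of MAP4K2 had 2 and 1 WT clusters and none with F125A. Among the 30 measured genes, MAP4K3 held the longest run of consecutive WT clusters with no F125A cluster among them, 16 clusters over 56.4 kb (chr2:39342793-39399174). Runs of at least 16 occurred in 88 of the 5626 genes (1.56%). MAP2K4 had a run of 14 over 16.6 kb, 13 followed each other over 18 kb in MAP3K2 and 11 over 32.9 kb in MAP3K1. Runs of at least 14, 13 and 11 occurred in 3.04%, 4.32% and 8.41% of all genes measured. The median longest run was 6.5 in the 30 genes and 5 in all genes measured. Run length is tied to the counts, since more WT and fewer F125A clusters leave room for longer runs. The shares of all genes were not matched for these counts.

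Among the kinases that MAP kinases switch on, MAPKAPK5 (MK5, or PRAK) had 61 WT and 51 F125A clusters over 60 kb of chromosome 12 (111842228 to 111902222, plus strand), a ratio of -0.71 (interval -1.26 to -0.14) and -0.58 when length-matched. MAPKAPK2 (MK2), which controls the stability of inflammatory messenger RNAs, had 30 and 12 (0.29, interval -0.65 to 1.46), and MAPKAPK3 3 and 2. In MAPKAPK5, 45 of 61 WT clusters (73.8%) and in MAP3K21 66 of 91 (72.5%) overlapped an F125A cluster, against 41.5% of WT clusters in all 46 genes. This share is tied to the counts, since the 51 F125A clusters of MAPKAPK5 and 72 of MAP3K21 offer many possible partners.

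The binding partners were mixed. MAPK8IP3 (JIP3), a scaffold that links JNK to kinesin motors, had 55 WT and 31 F125A clusters (-0.16, interval -0.80 to 0.55), and MAPK8IP2 (JIP2) had 9 and 11 over 13.2 kb (-1.23, interval -2.70 to 0.16, length-matched -0.50). All of the latter lay between 50601936 and 50610636 on chromosome 22. MAPK1IP1L had 17 and 9 (-0.11, interval -1.29 to 1.30). MAPKAP1, which encodes the mTORC2 subunit SIN1 and is part of the set by name only, had 104 and 39 over 269.8 kb (0.43, interval -0.09 to 1.02).

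The genes also differed in how densely they were covered. As a multiple of the median of measured genes as long, WT clusters per length ranged from 0.299 times in MAP2K6 to 2.53 times in MAP3K21. F125A clusters ranged from 0.24 to 3.88 times in the same 2 genes. Of the 30 genes, 19 lay above that median in the WT list and 16 in the F125A list. MAPK4 (0.467 times with WT and 0.295 with F125A), MAPK6 (0.42 and 0.495) and MAP3K15 (0.457 and 0.601) were low in both, and MAP2K5, MAP3K4 (2.11 and 3) and MAP2K4 (2.03 and 1.9) high in both. These multiples rest on annotated gene length, and in MAPK6 neither list had a cluster in the first 48.4 kb. The lists do not measure RNA level, so abundant and well-bound introns cannot be told apart.

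**Figure D4:**
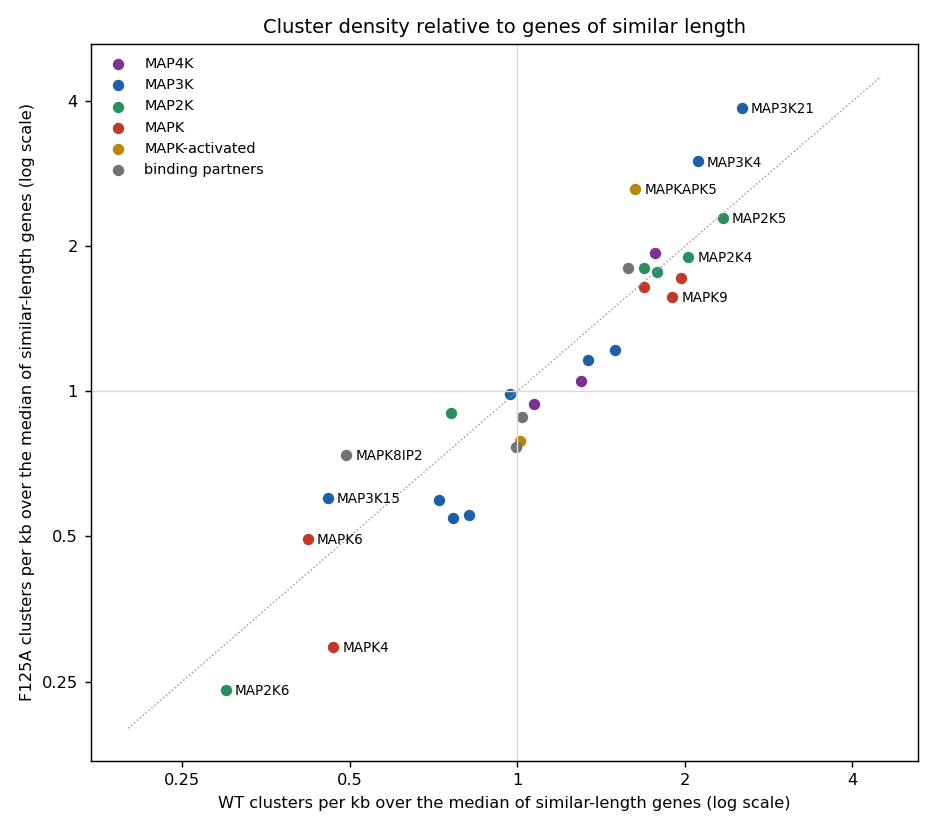
Clusters per length of 29 genes as a multiple of the median of measured genes as long, in the WT list (x, log scale) and the F125A list (y, log scale), coloured by tier. MAP3K21 is the highest in both, at 2.53 and 3.88, and MAP2K6 the lowest, at 0.299 and 0.24, and MAP3K21, MAP3K4 and MAPKAPK5 are among those above the dotted line of equal multiples.

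The 10 kb stretch with the most clusters overlapped between the lists in 8 of the 10 genes with the most clusters. With a 5 kb stretch this was so in 5 of the 10. Any shared nucleotide counted, and in MAP2K1 the 10 kb stretches shared only 80 nt. The same share was not computed over all genes, so these counts have no background. In MAP3K21 the 10 kb stretch held 33 WT clusters (chr1:233330744-233340838) and 29 F125A clusters (chr1:233332241-233342136), both near the start of the gene. In MAP2K5 it held 18 WT clusters (chr15:67728995-67738594) and 10 F125A clusters (chr15:67727754-67737479), more than 185 kb from the start. The 5 kb stretches of MAP3K21 overlapped too, but in MAP2K5 the 5 kb stretches lay 40.2 kb from the start with WT (10 clusters) and 121.9 kb with F125A (6 clusters). The 10 kb stretches also overlapped in MAP3K5, with 17 WT (chr6:136767261-136776037) and 9 F125A clusters (chr6:136767296-136774722), and in MAP4K4, with 18 (chr2:101699046-101708200) and 9 (chr2:101699502-101706510). MAPK8 had 23 WT (chr10:48309212-48318858) and 11 F125A clusters (chr10:48306925-48315483) at the start of the gene, whereas its 5 kb stretches lay 50.6 kb (14 WT clusters) and 51.8 kb (7 F125A clusters) from the start. MAP2K4 had 22 WT (chr17:12099613-12109563) and 13 F125A clusters (chr17:12095849-12105209).

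In other genes the stretches overlapped little or not at all. MAP3K4 had 27 WT clusters at chr6:161062002-161071623 and 20 F125A clusters at chr6:161049930-161059551. In MAP2K1 16 WT clusters (chr15:66453744-66463430) met 9 F125A clusters (chr15:66444762-66453823) only at their ends, and in MAPKAP1 16 WT (chr9:125647904-125657625) and 6 F125A clusters (chr9:125626092-125632983) lay apart. In MAP3K4 the choice was close, since its F125A stretch also held 24 WT clusters and its WT stretch 17 F125A clusters. MAPK8IP3, named here after its values were seen, had the most WT clusters of any stretch, 37 of its 55 (chr16:1735106-1745129), with 25 of its 31 F125A clusters at chr16:1735294-1745139. Whether these differences exceed the spread between libraries was not tested.

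**Figure D5:**
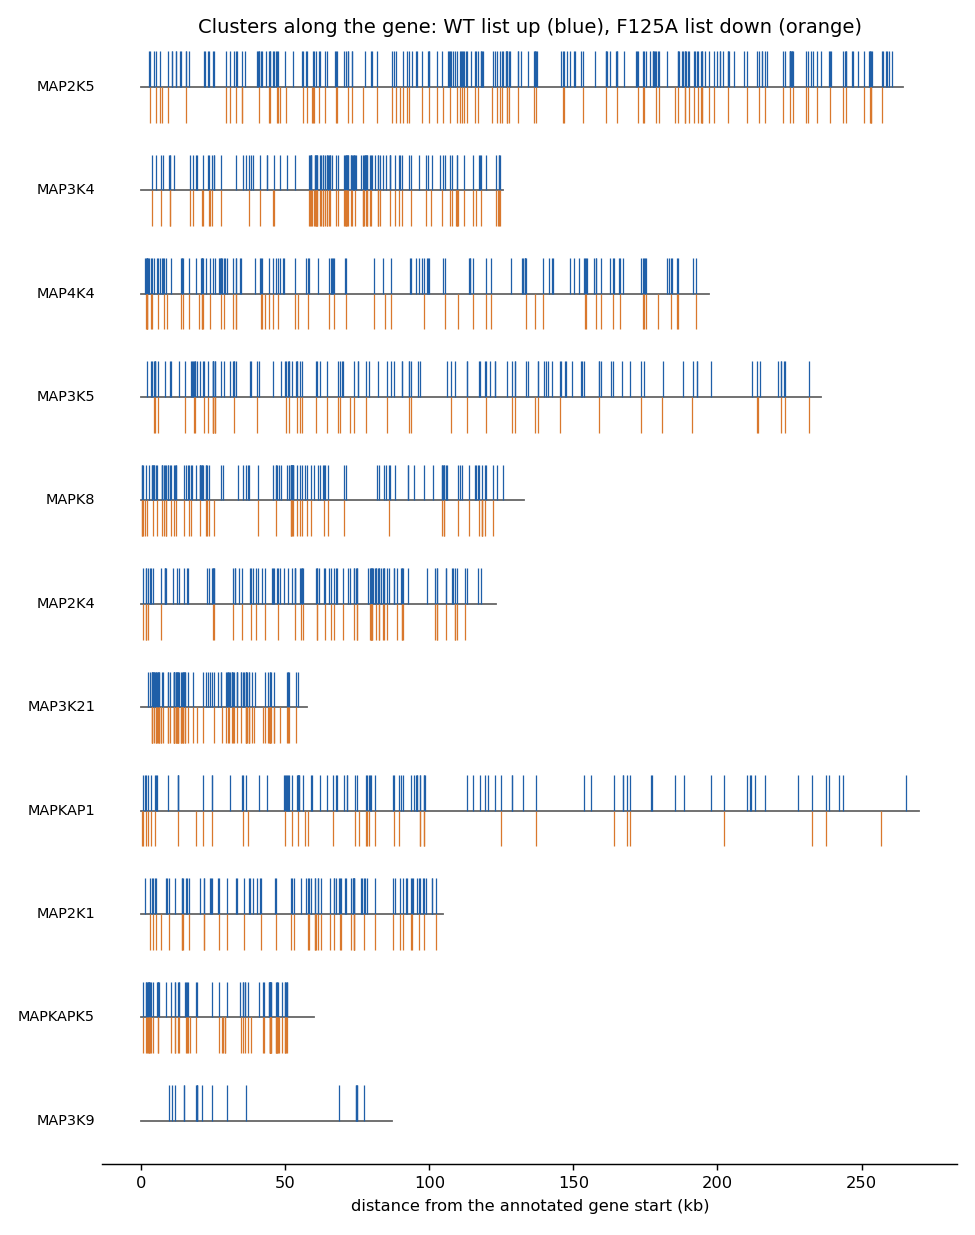
Place of each cluster along 9 of the genes with the most clusters, and along MAPKAPK5 and MAP3K9, as the distance in kb from the annotated gene start, with WT clusters drawn up and F125A clusters drawn down. MAP3K21 and MAPKAPK5 show nearly as many F125A as WT clusters, and MAP3K9 has 19 WT clusters and no F125A cluster.

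Most F125A clusters of the cascade genes sat where a WT cluster sat. Of the 1030 F125A clusters, 883 (85.7%, exact 95% interval 83.4 to 87.8%) overlapped a WT cluster by at least 1 nt on the same strand, against 85.5% in the whole list. Of the 2177 WT clusters, 903 (41.5%, 39.4 to 43.6%) overlapped an F125A cluster, against 45.2% in the whole list. The WT share was lowest in the MAP4K genes, at 35.2% (29.7 to 41.1%), and highest in the MAPKAPK genes, at 61.7% (51.1 to 71.5%). The latter rests mostly on MAPKAPK5, with 61 of the 94 WT clusters of that tier, while the share in MAPKAPK2 was 36.7%. Genes with a lower share, such as MAPK4 (20%), MAP3K20 (21.2%) and MAP3K1 (22.9%), were among those with more WT clusters per F125A cluster. The 2 measures are not independent, since fewer F125A clusters leave fewer possible partners for the WT clusters. The ends seldom matched to the nucleotide: 112 of the 1030 F125A clusters (10.9%) began where a WT cluster began, 103 (10%) ended where 1 ended, and 18 (1.75%) did both. In the whole F125A list these shares were 14%, 14% and 3.62%.

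The clusters were as short as elsewhere, with a median of 60 nt for WT (quartiles 48 and 77 nt) and 63 nt for F125A (50 and 79 nt). The longest WT cluster was 204 nt, in MAP3K4 (chr6:161068602-161068805), and overlapped an F125A cluster of 80 nt. A long cluster of MAP2K1 was found by both, at 172 nt with WT (chr15:66468057-66468228) and 160 nt with F125A (chr15:66468041-66468200), as was one of MAPKAPK5, at 164 nt and 159 nt (chr12:111852632-111852795 with WT). The longest F125A cluster, 174 nt in MAP3K4 (chr6:161114992-161115165), overlapped no WT cluster, and neither did those of 157 nt in MAP2K5 and 145 nt in MAP4K5. Adjoining clusters with no gap made up 4.55% of neighbouring WT pairs and 4.64% of F125A pairs, against 6.03% and 5.58% in the lists.

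The share of clusters close to the gene start was lower than in the lists at large, without matching for the greater length of these genes. Within 1 kb of the start were 17 WT clusters (0.781%, exact interval 0.456 to 1.25%) and 16 F125A clusters (1.55%, 0.89 to 2.51%), against 2.01% and 3.47% of the clusters placed in a gene. Within 5 kb the shares stood closer, at 8.18% of WT and 10.4% of F125A clusters against 9.55% and 12.7%. Of the WT clusters 13.1%, and of the F125A clusters 13.7%, fell in the first 10% of their gene, against 13.9% and 15.7% in the lists. The last 10% held 4.55% and 4.76%, against 4.56% in each list.

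Other genes of the cascade leaned the same way. Of 70 upstream regulators, kinases, scaffolds, phosphatases and target factors under other names, 61 had a cluster, 2972 WT and 1363 F125A clusters in sum, and 9 had none, namely JUN, FOS, DUSP1, DUSP4, DUSP5, DUSP9, PTPN7 and RRAS, each under 20 kb long, and NRK, which is 136.8 kb long. The 39 with at least 20 clusters had a median ratio of 0.21, 27 above and 12 below 0, and a length-matched median of 0.14. The most clusters were in NF1, a RAS inhibitor (333 WT and 191 F125A clusters, -0.16, interval -0.42 to 0.10), MEF2A, a transcription factor and p38 target (169 and 93, -0.11), RAPGEF2, an activator of RAP GTPases (163 and 61, 0.44, interval 0.02 to 0.90), TNIK (152 and 55, 0.49, interval 0.05 to 0.98) and TAOK1 (138 and 68, 0.05), both kinases of the upper tiers, and TAB2, an adaptor (131 and 63, 0.08). In the same order their length-matched ratios were -0.47, -0.24, 0.23, 0.18, -0.08 and -0.11. KSR2, a scaffold of RAF and MEK, was the only one of them at 2-fold or more, with 36 WT and 5 F125A clusters over 516 kb (1.66, interval 0.53 to 3.59, length-matched 1.24), while its relative KSR1 had 47 and 16 (0.53, -0.25 to 1.51).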

How the data were processed

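The deposited data used here were 2 lists of intronic clusters, 1 for the 3 WT and 1 for the 2 F125A libraries. Per the labels' protocols, libraries followed a modified iCLIP preparation whose primers carried molecular identifiers, and short inserts were selected by size. The submitters' processing notes name the read trimmer cutadapt, the aligner STAR and the build hg38. Not given in the sources used here were versions, the cluster caller, its threshold, the pooling of libraries and any use of the control. All values are genome positions in nt, per the file headers, and no unit of expression applies. The deposited starts count from 0 and are printed counting from 1.

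Repeated rows were dropped (7029 WT, 4851 F125A). Members were taken by name (MAPK followed by a digit or A, or MAP2K, MAP3K or MAP4K followed by a digit, a single name), and all 46 matched a RefSeq GRCh38.p14 symbol, which gave gene bounds without exons. The ratio was computed over all genes and is a fold of counts on a log2 scale, with exact (Clopper-Pearson) 95% intervals of the WT share. Member windows were named for the 10 genes with most clusters and those at 2-fold, and others by their values. The members and lists were chosen with earlier results of these data known. The computation was tested on simulated data. The values of 1 member and 1 marker gene are not reported here, although sums and counts over the sets include them. Sequence under clusters was not analysed here, apart from the hairpin. Python 3.11.15, pandas 2.3.3 and scipy 1.17.1 were used. Alternatives covered merging, repeats, an identical stretch, the added count, centring, gene length, the minimum, the overlap rule, the distance and the window.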

Additional observations from a re-analysis of the deposited data

How the results depend on the processing

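No paired analysis was possible because each group has 1 list without replicates. The 180 alternative ratios of single genes (5 added to each count, centring on the median gene, gene length, a minimum of 10 clusters, merging of clusters closer than 50 nt, and leaving out the longest block of consecutive lines found in both lists) all stayed inside their counting interval, although 6 genes near 0 (MAP2K1, MAP3K10, MAP3K3, MAP4K4, MAPK14 and MAPK1IP1L) took both signs. Several of these settings could hardly have done otherwise. The minimum of 10 left the ratios of the 30 genes unchanged. Centring moved every gene by the same small amount, as did leaving out the block, which held no cluster of these genes. The counting intervals are also wide. The median ratio ranged from 0.06 to 0.19. With gene length corrected, 0 genes lay 2-fold or more toward F125A. With a minimum of 10 clusters, 36 genes were measured. Of these, 1 (MAP3K9, with no F125A cluster and an interval from 1.26 upward) lay 2-fold or more toward WT. Toward F125A lay 2, MAPK8IP2 and MAPK12 (-1.66, but -0.89 when length-matched), and 1 of the other cascade genes (ELK1, 7 WT and 9 F125A clusters). Centred on the median gene, 2 of the other cascade genes (KSR2 and RPS6KA6) lay 2-fold or more toward WT. The shares of all genes called at these settings, 7572 genes being measured at a minimum of 10, are not given here, so these counts have no background. Counting a partner within 50 nt raised the WT share to 45.8%. Within 5 kb of the start lay 8.18% of WT and 10.4% of F125A clusters, against 9.55% and 12.7% in the lists. Merging, repeats, the block and updated names left 2.05 to 2.11 WT clusters per F125A cluster. In a 5 kb window the most clusters were 30 WT and 20 F125A, both in MAPK8IP3, and the stretches of the lists overlapped in 5 of 10 genes in place of 8. Few clusters per gene limit most ratios.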
